A study of Mus musculus with 36 samples.

Results

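The enzymes described here attach a polar group to drugs, hormones, bilirubin, bile acids and reactive by-products of metabolism: the UDP-glucuronosyltransferases (Ugt) attach glucuronic acid or another sugar, the glutathione S-transferases (Gst and the membrane-bound Mgst) attach glutathione, and the sulfotransferases of the Sult1 family attach sulfate. Bins, pieces of up to 501 bp cut from H3K9me3 peaks, were taken as members where they lay on an autosome and the deposited nearest-gene symbol began with Ugt1, Ugt2, Ugt3, Ugt8, Gsta, Gstk, Gstm, Gsto, Gstp, Gstt, Gstz, Mgst or Sult1. This gave 697 of the 786789 rows of 6 tables, namely 105 bins in the age comparison of females, 140 in that of males, 122 and 147 in the comparisons of maternal obesity (MO) in females and males at 3 weeks, and 94 and 89 in those at 8 weeks. They fell into 209 separate places in the genome and carried 45 gene symbols (17 Ugt, 24 Gst or Mgst and 4 Sult1).

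Livers came from mouse offspring of dams fed chow (control) or made obese with a Western-style diet (MO). All mice, controls included, were described as littermate controls bred from a colony carrying floxed Reg3g alleles, and were fed ad libitum until collection. The 32 ChIP libraries form 8 groups of 4 by diet of the dam, sex and age, at 3 weeks (before weaning) or at 8 weeks (after a period on chow that MO offspring received too), and 4 input libraries go with the controls. H3K9me3 ChIP-seq, the sequencing of chromatin pulled down with an antibody against histone H3 trimethylated on lysine 9, was the measurement. The authors' deposited tables compare 8 with 3 weeks in control females and control males, and MO with control offspring in each sex at each age. They hold no value per library, so that neither the level in each animal nor the spread between animals can be shown beside a change. The deposited p-values depend on that spread, but also on the size of the change and the read counts. Whole liver was used, and the mark does not measure gene expression: 6 or 7 of 10 hepatocyte marker genes had bins in each table, which says nothing about the cell types present.

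H3K9me3 marks compacted, silent chromatin, most of it over repeated sequence, and in liver it also covers genes that hepatocytes do not use. Ugt, Gst and Sult1 genes mostly sit in clusters of similar copies, and several Ugt and Sult genes are known to differ in expression between male and female liver or between young and adult liver. The genes of the Ugt1 cluster have their own first exons and share all later exons, so a bin downstream of a first exon belongs to many of them at once.

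Signal over family bins was close to that of other autosomal bins: the median signal was 15.8 CPM (library-scaled counts) per kb in the age table of females and 11.7 in that of males, against 14.0 and 10.1 over all autosomal bins. Among 53 protein-coding genes of these families in the RefSeq annotation of GRCm38, 44 were the nearest gene of at least 1 bin. The other 9 were Gsta3, Gstk1, Sult1d1, Sult1e1 (the estrogen sulfotransferase), Ugt1a1 (the bilirubin enzyme), Ugt1a6a, Ugt1a8, Ugt1a10 and Ugt2a2. A bin assigned by nearest start need not lie in that gene. By the GENCODE M21 gene models, 35.0% of the 697 rows overlapped a coding gene of these families, 17.6% overlapped only other genes, and most of the rest lay between genes. Of 14 bins assigned to Mgst2 in the female age table, for example, 3 overlapped Mgst2 and 7 overlapped its neighbour Maml3, a co-activator of Notch signalling.

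The sequences below are the bins in a promoter or gene body that passed the age threshold given further on, together with the stretch that the female and the male bin at Ugt3a1 share, which was added after its values were seen. They are GRCm38 plus-strand sequence read from the RefSeq assembly, at most the central 300 bases of each, with CG dinucleotides in capitals.
Ugt1a6b intron, chr1:88119127-88119323: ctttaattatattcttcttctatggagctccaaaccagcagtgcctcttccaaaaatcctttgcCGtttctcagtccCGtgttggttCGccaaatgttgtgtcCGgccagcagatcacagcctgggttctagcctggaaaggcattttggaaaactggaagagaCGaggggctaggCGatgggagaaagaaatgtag
Mgst2 promoter, chr3:51673453-51673752: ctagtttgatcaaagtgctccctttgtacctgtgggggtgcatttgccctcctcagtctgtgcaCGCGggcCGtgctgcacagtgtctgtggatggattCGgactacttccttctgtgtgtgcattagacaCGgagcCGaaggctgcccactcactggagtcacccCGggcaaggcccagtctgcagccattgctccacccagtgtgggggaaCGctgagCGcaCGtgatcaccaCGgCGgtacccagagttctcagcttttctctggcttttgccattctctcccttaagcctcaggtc
Gstz1 bin, chr12:87161643-87161942: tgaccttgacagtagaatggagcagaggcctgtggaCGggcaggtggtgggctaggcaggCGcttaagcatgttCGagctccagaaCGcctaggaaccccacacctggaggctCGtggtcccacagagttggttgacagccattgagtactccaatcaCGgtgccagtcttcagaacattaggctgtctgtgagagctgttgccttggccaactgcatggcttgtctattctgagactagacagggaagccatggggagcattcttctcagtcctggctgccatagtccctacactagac
Mgst3 intron, chr1:167388735-167389034: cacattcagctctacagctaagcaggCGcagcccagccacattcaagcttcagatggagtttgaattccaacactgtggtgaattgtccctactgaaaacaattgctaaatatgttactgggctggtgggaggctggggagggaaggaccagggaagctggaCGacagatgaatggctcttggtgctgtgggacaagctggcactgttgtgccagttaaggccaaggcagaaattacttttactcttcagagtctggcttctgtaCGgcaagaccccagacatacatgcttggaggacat
Maml3 exon assigned to Mgst2, chr3:51690167-51690466: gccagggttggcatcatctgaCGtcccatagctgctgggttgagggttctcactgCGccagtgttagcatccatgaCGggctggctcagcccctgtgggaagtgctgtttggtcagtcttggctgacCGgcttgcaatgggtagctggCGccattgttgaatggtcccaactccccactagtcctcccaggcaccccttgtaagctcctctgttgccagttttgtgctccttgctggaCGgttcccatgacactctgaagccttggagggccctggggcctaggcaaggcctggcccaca
Ugt3a1 promoter, chr15:9276300-9276599: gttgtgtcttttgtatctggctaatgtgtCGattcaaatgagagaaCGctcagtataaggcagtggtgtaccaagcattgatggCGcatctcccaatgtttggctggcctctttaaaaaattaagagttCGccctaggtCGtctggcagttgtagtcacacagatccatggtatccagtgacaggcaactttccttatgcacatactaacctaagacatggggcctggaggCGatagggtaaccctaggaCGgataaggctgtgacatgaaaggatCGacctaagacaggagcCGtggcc

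These sequences differ in kind. The Mgst2 promoter sequence held 12 CG dinucleotides and none of it was soft-masked as a repeat, whereas 92.4% of the Ugt1a6b bin and 59.0% of the Ugt3a1 stretch were. All 300 bases of the Maml3 sequence were coding sequence of Maml3. In the Gstz1 bin only 15 of 501 bases, at its edges, were exon, and the bases printed are intron.

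The question of the age comparison was how the mark changed between 3 and 8 weeks in control offspring. In control females 4 of 105 family bins had a false discovery rate (FDR) under 0.05: a bin downstream of Sult1c2 and one downstream of Mgst1 rose, and bins at the Mgst2 promoter and in the Ugt1a cluster fell. In control males 11 of 140 passed: 7 rose, near Sult1c1, Sult1c2, Ugt2b34 and Ugt2b37 and in Maml3, and 4 fell, in Gstz1 and Mgst3 and near Sult1c1 and Ugt2b35. Changes are log2 ratios of 8 over 3 weeks, the SE is an approximate one recovered from the deposited exact p, and 0 means no change. Over all autosomal bins, 2.08% passed the same threshold in females and 4.36% in males, so that the family counts correspond to shares of 3.81% and 7.86%. Family bins had a median change of -0.10 (females) and -0.08 (males), against -0.05 over all autosomal bins in each sex. Once the part of the change that followed base composition and read density was subtracted, 2 bins in females and 6 in males were called, against 0.751% and 1.67% of all autosomal bins. The bins no longer called kept their direction. Their values became -1.06 at Ugt1a6b (adjusted p = 0.22) and 0.98 at Mgst1 (adjusted p = 0.12) in females. In males the Gstz1 bin stood at -1.11 (adjusted p = 0.089), and the others, at Mgst3, Ugt2b34, Sult1c1 (chr17:54107022-54107489) and Sult1c2 (chr17:53803912-53804412), are given with each gene. Adjusting the deposited p-values over the listed bins alone gave 6 calls of females and 16 of males, where 2.50% and 5.63% of autosomal bins passed. The calls added were those at the Ugt3a1 start and Gstm7 in females, and at the Ugt3a1 and Gsto2 starts, Gstm2, Gstt2 and Mgst1 in males.

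**Figure D1:**
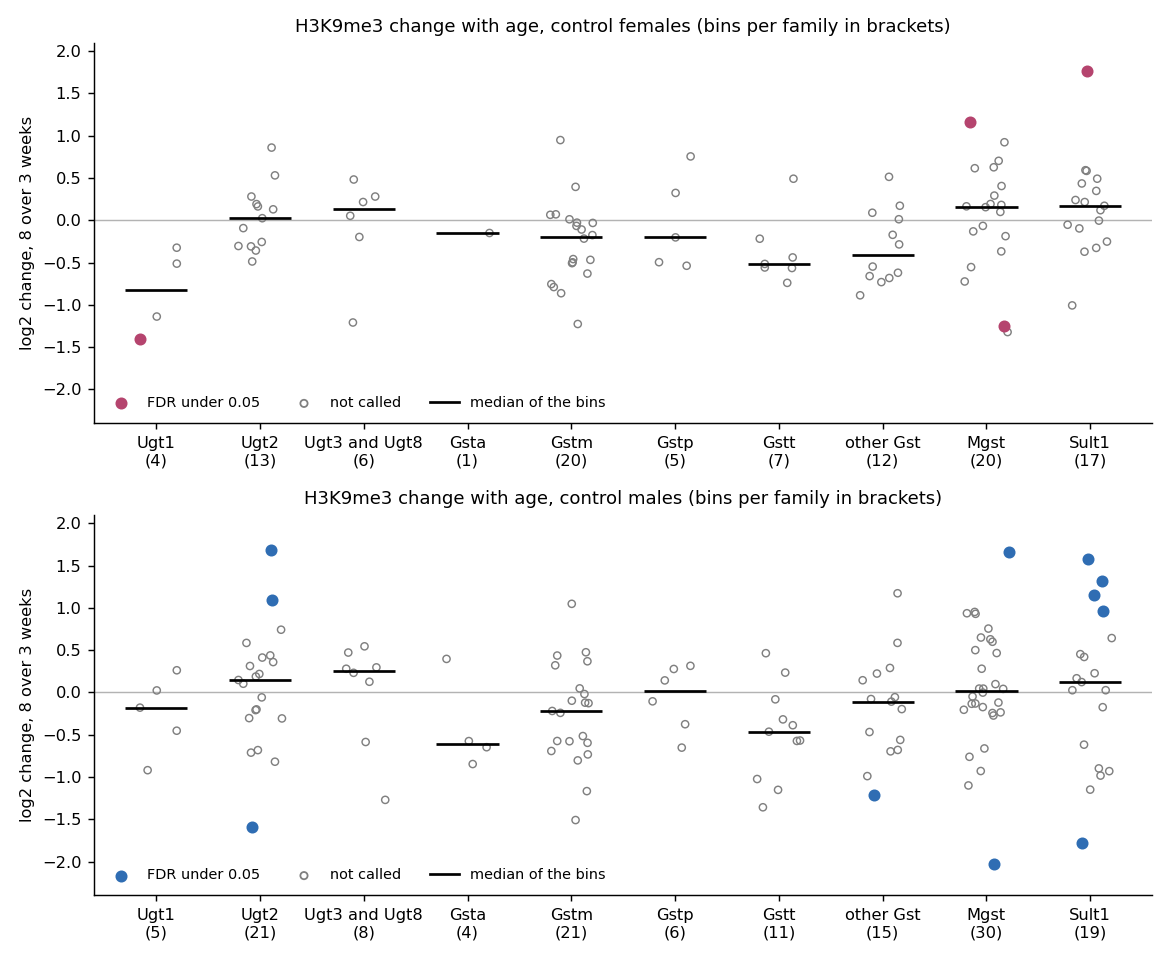
Each point is one bin, placed by gene family on the horizontal axis and by the log2 change of H3K9me3 from 3 to 8 weeks on the vertical axis, for control females above and control males below; filled points have an FDR under 0.05 and black lines are medians over the bins. The 4 called bins of females and 11 of males lie in the Ugt1, Ugt2, other Gst, Mgst and Sult1 families, and no Gsta, Gstm, Gstp or Gstt bin was called in either sex by this FDR.

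All 9 bins that rose with an FDR under 0.05 in either sex lay outside the coding genes of the families, and 4 of the 6 that fell lay inside one. These 15 calls lie at 14 places, since the repeat bin downstream of Sult1c2 counts in both sexes. Of all family rows, 35.0% lay inside a family gene. The matching split of all called autosomal bins is not given here. After the subtraction of base composition and read density, the 5 bins called higher again lay outside, but of the 3 called lower only the Mgst2 promoter of females lay inside. With adjustment over the listed bins alone, the Gsto2 start bin of males (1.17, adjusted p = 0.045) was a bin called higher inside a family gene. Counting called and uncalled bins, 32 of 39 bins inside a family gene were lower at 8 weeks in females (median -0.30), and 35 of 48 in males (median -0.31). Of those not called, 30 of 37 and 33 of 46 were lower, with medians of -0.29 and -0.24. Family bins in promoters, taken as within 3 kb of a start site, were lower in 18 of 26 cases in females and 26 of 36 in males, whereas among all autosomal promoter bins 48.4% and 45.5% were lower. After the subtraction 19 and 23 of these promoter bins were lower, against 54.4% and 50.6% of all autosomal ones. Intergenic family bins were lower in 18 of 43 and 22 of 60 cases (41.9% and 36.7%), against 51.4% and 51.7% of all autosomal intergenic bins. This grouping by position was made after the values were seen, and no test was run on it. After the same subtraction, bins in a family gene or within 3 kb of its start were lower in 32 of 44 cases in females and 36 of 54 in males, against 52.6% and 50.7% of all autosomal bins in promoters and gene bodies.

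**Figure D2:**
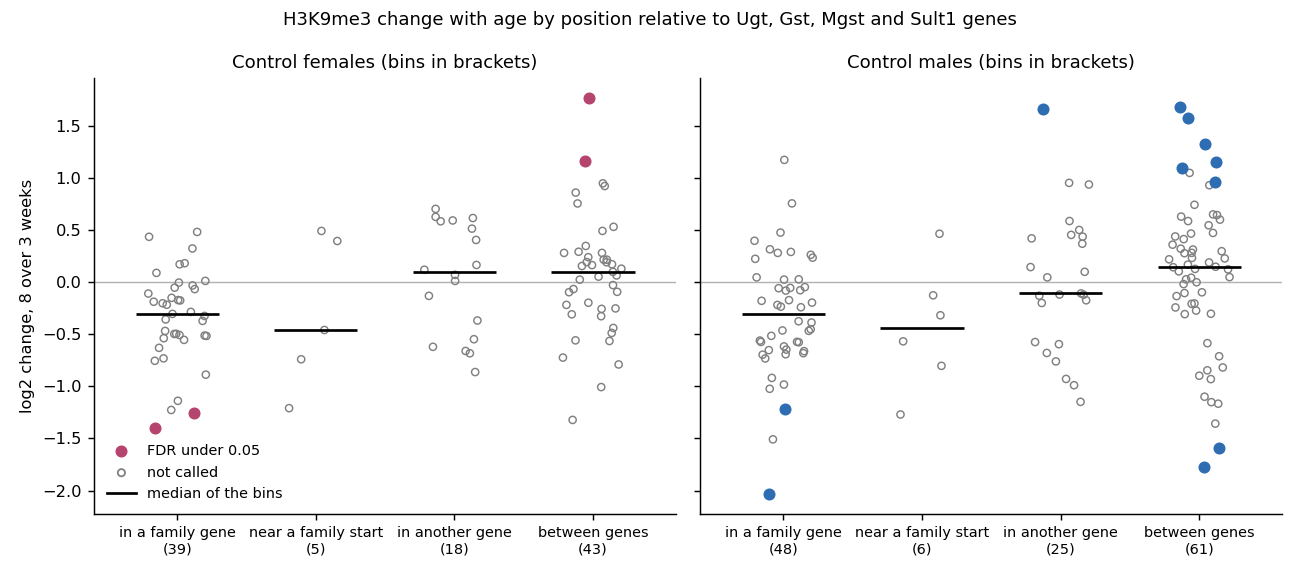
Family bins are grouped by position relative to coding genes of the families, with the log2 change from 3 to 8 weeks on the vertical axis, in control females and control males. Bins inside a family gene centre below 0 in both panels (medians -0.30 and -0.31), and every called bin among them fell.

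Glucuronosyltransferases come first. In the Ugt1 cluster on chromosome 1, all 4 bins of females were lower at 8 weeks, with a median of -0.83 and a range from -1.40 to -0.32. The lowest was the repeat-rich intron bin printed above, assigned to Ugt1a6b and lying within the bodies of Ugt1a6b, Ugt1a7c, Ugt1a8, Ugt1a9 and Ugt1a10 (change -1.40, SE 0.43, FDR 0.049, edgeR's exact test in the deposited table). The next was a bin nearest Ugt1a5 (chr1:88176772-88177213), which had the highest average signal on the log2 CPM scale in the family and missed the threshold (-1.14, FDR 0.068). In males the 5 Ugt1 bins ranged from -0.92 to 0.26 and none was called. Their lowest value was at the start of Ugt1a7c (chr1:88094954-88095206; -0.92, exact p = 0.025, FDR 0.24). The male bin over the same place as the Ugt1a5 bin of females stood at -0.18 (FDR 0.94). The Ugt1a6b intron had no overlapping bin in the male age table.

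Ugt2 enzymes, which handle steroids, bile acids and many drugs, are encoded in a cluster on chromosome 5, and 11 of their 13 bins in females were intergenic. None of the 13 was called in females, where the values ran from -0.49 to 0.86 around a median of 0.02. The smallest p belonged to a distal bin of Ugt2b37 (chr5:87204629-87204899; 0.86, FDR 0.23). In males 3 of 21 were called, against 4.36% of all autosomal bins. A bin 24.6 kb downstream of the Ugt2b34 start (chr5:86881817-86882317) rose by 1.09 (SE 0.27, FDR 0.0050) and carried the strongest signal of the family in both sexes. It held 99.0% soft-masked sequence, and its counterpart in females stood at 0.53 (exact p = 0.035, FDR 0.31). With base composition and read density subtracted, the male value was 0.57 and was not called (adjusted p = 0.27). A bin at -13.2 kb from the Ugt2b37 start (chr5:87268003-87268263) rose by 1.68 (SE 0.44, FDR 0.011). A bin assigned to Ugt2b35, 31.5 kb past its start (chr5:87032392-87032556), fell by 1.59 (FDR 0.027). Neither of these bins had an overlapping bin in the female age table.

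Ugt3a enzymes use sugar donors other than UDP-glucuronic acid, and Ugt8a makes galactosylceramide, a myelin lipid. No bin of theirs was called by the deposited FDR, but the bin at the first annotated Ugt3a1 start had the smallest p of this family in both sexes. Its change was -1.21 in females (chr15:9276188-9276688; SE 0.38, exact p = 0.0015, FDR 0.060) and -1.27 in males (chr15:9276211-9276711; SE 0.41, exact p = 0.0019, FDR 0.056). It passed in both when the p-values were adjusted over the listed bins alone (adjusted p = 0.049 and 0.040). With base composition and read density subtracted, it stood at -1.02 in each sex and was not called (adjusted p = 0.17 in females, 0.18 in males). The difference between the sexes in the deposited change was 0.06 with an approximate 95% interval from -1.04 to 1.16. The table measured its distance, -0.20 kb in females, from a transcript that begins upstream of the RefSeq start, which lies 3.38 kb from the middle of the shared stretch. The strongest bins of the family, at the Ugt8a start in females (0.48, exact p = 0.11) and upstream of Ugt3a1 in males (0.47, exact p = 0.13), did not pass.

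Among the cytosolic glutathione S-transferases, the Gsta genes, which encode major hepatocyte forms, had 1 bin in females, in intron 1 of Gsta2 (-0.15, FDR 0.97). In males they had 4, of which the lowest was a distal Gsta1 bin (chr9:78211380-78211774; -0.85, exact p = 0.040, FDR 0.30). The strongest male bin was assigned to Gsta5 and overlapped the gene Gm10639 (-0.57, FDR 0.60).

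The Gstm cluster on chromosome 3 had more bins, and most were lower at 8 weeks: 15 of 20 in females (median -0.20) and 15 of 21 in males (median -0.22), with none called by the deposited FDR. At an unadjusted p under 0.05 there were 5 in each sex, against 16.5% and 21.7% of all autosomal bins, and 4 of the 5 were lower. The exceptions were intergenic bins assigned to Gstm7 in females (0.95) and Gstm3 in males (1.05). The lowest of females lay in the untranslated region at the end of Gstm7 (chr3:107926746-107927155; -1.23, FDR 0.053), just outside the threshold. The lowest of males lay in the corresponding region of Gstm2 (chr3:107981769-107982269; -1.51, FDR 0.059). At start sites, the Gstm6 bin of females stood at -0.75 (exact p = 0.047, FDR 0.35) and the Gstm1 bin of males by -0.69 (exact p = 0.038, FDR 0.29). The Gstm1 start also held the strongest Gstm bin of females (-0.11, FDR 1.00), and that of males was assigned to Gstm5 but lay in an exon of Gm9515 (-0.12, FDR 0.97). Read counting cannot always separate these near-identical copies, so values for a single Gstm gene are uncertain.

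Gstp, Gstt and the remaining Gst genes gave one call between them. Gstp bins ranged from -0.54 to 0.75 in females, where a fully soft-masked bin 11.3 kb from Gstp1 had both the smallest p and the strongest signal (0.75, exact p = 0.0089, FDR 0.16), and from -0.65 to 0.32 in males, where the Gstp1 start had the smallest p (-0.65, FDR 0.50) and a distal Gstp1 bin the strongest signal (0.28, FDR 0.78). Gstt bins on chromosome 10 were lower in 6 of 7 cases in females (median -0.52) and 9 of 11 in males (median -0.46). With base composition and read density subtracted, most of these values lay nearer 0 in both sexes. The Gstt bin with the smallest p was a distal one of Gstt2 in males (chr10:75842308-75842745; -1.36, FDR 0.063). In females it was at the Gstt2 promoter (-0.74, FDR 0.41), and the strongest Gstt bins were at the starts of Gstt1 in females (0.49, FDR 0.62) and Gstt3 in males (-0.57, FDR 0.48). In Gstz1, the maleylacetoacetate isomerase of tyrosine breakdown, the bin printed above fell in males (-1.21, SE 0.37, FDR 0.040). The overlapping female bin (chr12:87161712-87162212), the strongest of its family there, stood at -0.17 (SE 0.38, FDR 0.95). The female change exceeded the male one by 1.04 (approximate 95% interval 0.00025 to 2.08, adjusted p = 0.75 over all autosomal pairs). For Gsto2, an omega-class enzyme with thioltransferase activity, the bin over the start was higher in males (chr19:47865257-47865757; 1.17, exact p = 0.0023, FDR 0.064) and stood at 0.17 in females (FDR 0.96); it also overlaps Cfap43. An intron bin of Gsto2 had the smallest p of the remaining Gst genes in females (-0.89, FDR 0.27), and the strongest bin of these genes in males, assigned to Gstz1, lay in Tmed8 (-0.11, FDR 0.99).

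Bins assigned to membrane-bound Mgst genes had 2 calls in each sex, of which 1 in males lay in Maml3. In females the Mgst2 promoter bin (chr3:51673415-51673790), at -1.35 kb from the start used in the table and inside the longest Mgst2 gene model, fell by 1.26 (SE 0.34, FDR 0.019). It lies 13.2 kb past the start of that longest model, so promoter here refers to an internal start. Mgst2 has leukotriene C4 synthase activity besides its transferase role. No male bin in the age table overlapped this place. In males the bin in intron 1 of Mgst3 (chr1:167388634-167389134) had the largest fall of any family bin, 2.03 (SE 0.54, FDR 0.013), at a low signal of 6.03 CPM per kb. With base composition and read density subtracted it stood at -1.41 and was not called (adjusted p = 0.16), above the -1.85 of Sult1c1 (chr17:54016999-54017486) and the -1.62 of Ugt2b35. The closest female bin, which did not overlap it (chr1:167389461-167389930), stood at -0.55 (exact p = 0.13). A distal bin of Mgst1, 41.3 kb past its start, rose in females (chr6:138184106-138184548; 1.16, SE 0.34, FDR 0.033) and was higher in males too (0.93, SE 0.30, exact p = 0.0022, FDR 0.061). After the same subtraction it stood at 0.98 in females (adjusted p = 0.12) and 0.41 in males (adjusted p = 0.56). Another distal Mgst1 bin (chr6:138168537-138168845) was lower in females without passing (-1.32, FDR 0.074).

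The bin assigned to Mgst2 with the smallest FDR of all family bins was the coding exon of Maml3 printed above. It rose by 1.67 in males (chr3:51690066-51690566; SE 0.29, FDR 6.97e-06), and the overlapping female bin stood at 0.62 (SE 0.33, exact p = 0.060). A second exon bin of Maml3 was higher in both sexes (0.70 in females, exact p = 0.037; 0.95 in males, exact p = 0.0033). With base composition and read density subtracted, this second bin stood at 0.69 in females (adjusted p = 0.35) and 0.51 in males (adjusted p = 0.46). These values describe Maml3 chromatin and were listed under Mgst2 only because its start is nearer.

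Sulfotransferase bins had the highest share of calls in males, 5 of 19, and 1 of 17 in females, against 4.36% and 2.08% of all autosomal bins. All 6 lay in the Sult1c region of chromosome 17, 24.3 kb or more from the start they were assigned to, and none overlapped a coding gene. The bin 24.3 kb downstream of the Sult1c2 start, made entirely of soft-masked sequence, rose in both sexes: by 1.77 in females (chr17:53821492-53821992; SE 0.40, FDR 0.0021) and by 1.32 in males (chr17:53821428-53821928; SE 0.37, FDR 0.018). It was the only overlapping pair of family bins called in both by the deposited FDR. Adjusted over the listed bins alone, the Ugt3a1 start pair and the distal Mgst1 pair (adjusted p = 0.028 and 0.043) were too. With base composition and read density subtracted, neither of these pairs was called in either sex. Around Sult1c1, bins rose in males at chr17:53936575-53937075 (1.58, SE 0.40, FDR 0.0081) and chr17:54107022-54107489 (1.15, SE 0.31, FDR 0.014). Between them, a bin at -26.3 kb from the Sult1c1 start (chr17:54016999-54017486) fell by 1.78 (SE 0.38, FDR 0.00067), and its female counterpart was lower as well (-1.01, SE 0.39, exact p = 0.010, FDR 0.17). The bin with the strongest signal of the family, 41.9 kb downstream of the Sult1c2 start (chr17:53803912-53804412), rose by 0.96 in males (SE 0.30, FDR 0.046) and stood at 0.49 in females (exact p = 0.071). After the subtraction it was 0.52 and the bin at chr17:54107022-54107489 was 0.76, neither of them called (adjusted p = 0.40 and 0.19). Sult1a1, the main phenol sulfotransferase, had a single bin in each sex (-0.37, exact p = 0.41 in females; 0.03 in males). Sult1b1, which sulfates thyroid hormone, had an intron bin that was 0.44 in females and -0.98 in males (exact p = 0.18 and 0.015).

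**Figure D3:**
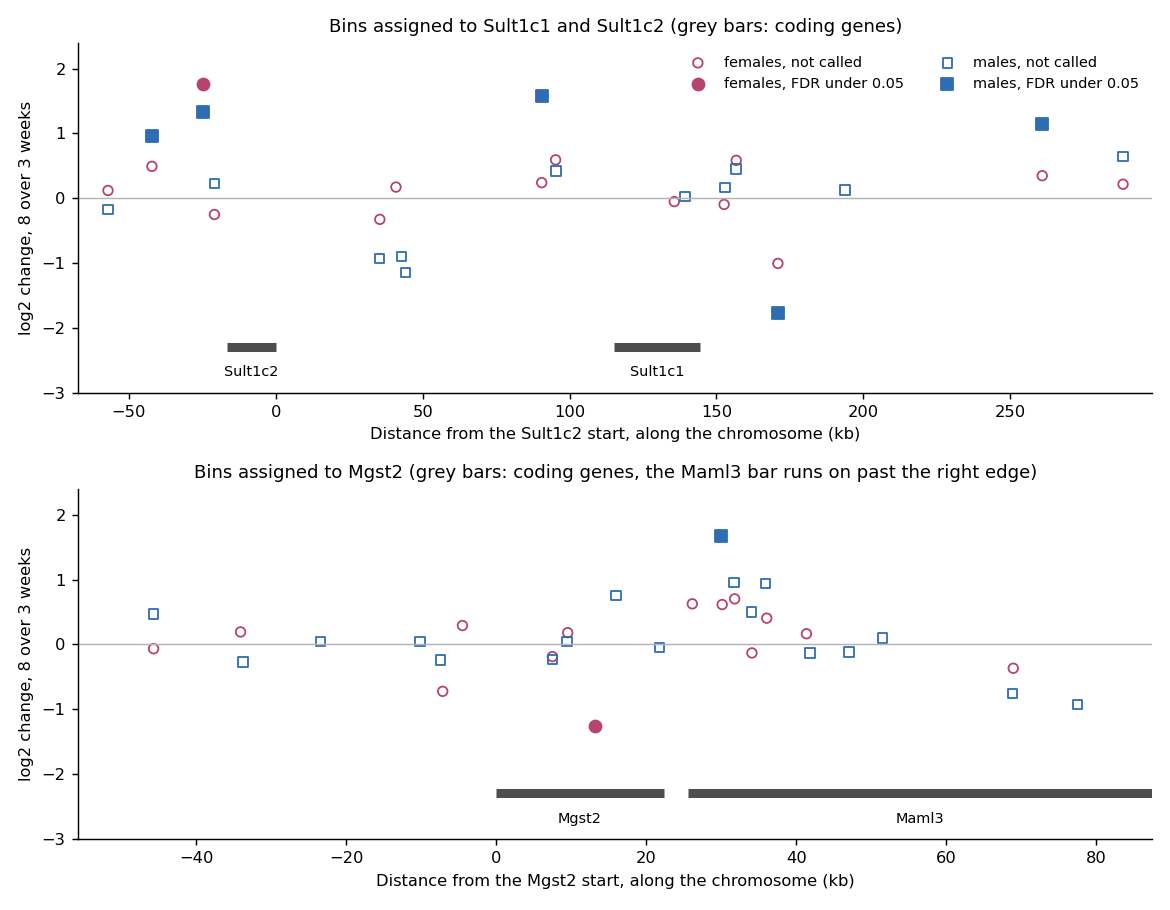
The log2 change from 3 to 8 weeks is plotted against distance along the chromosome from the Sult1c2 start (upper panel) and the start of the longest Mgst2 gene model (lower panel), for females (circles) and males (squares), with called bins filled and coding genes as grey bars. Values above and below 0 both occur over the Sult1c region, called bins lie outside both genes there, and the called male bin of the lower panel sits in Maml3.

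Female and male age changes come from different libraries and were compared at 58 pairs of family bins that overlap by at least 0.5 of the length of each. The change had the same sign in 46 of 58 pairs (79.3%), 28 higher and 18 lower at 8 weeks in both, against 64.5% of all 54208 autosomal pairs. Across the 58 pairs Spearman's rho was 0.67 and Pearson's r 0.64, as a description, since bins of a cluster are not independent. Over all autosomal pairs rho was 0.41. At an unadjusted p under 0.05 in both sexes there were 7 pairs (12.1%), all with matching signs. Among all autosomal pairs 5.20% met this, and 96.4% of those had matching signs.

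No family pair differed between the sexes after adjustment over all pairs, and neither did any other autosomal pair (0% called). The approximate z test gave an unadjusted p under 0.05 at 4 family pairs, or 6.90%, against 6.66% of all autosomal pairs. The pair with the smallest p was the Sult1b1 intron, where the female change exceeded the male one by 1.42 (95% interval 0.41 to 2.43, adjusted p = 0.51). The Sult1c1 bin at chr17:53936575-53937075 differed by -1.34 (interval -2.43 to -0.24, adjusted p = 0.60), and the Maml3 exon bin by -1.05 (interval -1.90 to -0.20, adjusted p = 0.59). These intervals are wide, and a missed threshold does not show that the sexes were alike.

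**Figure D4:**
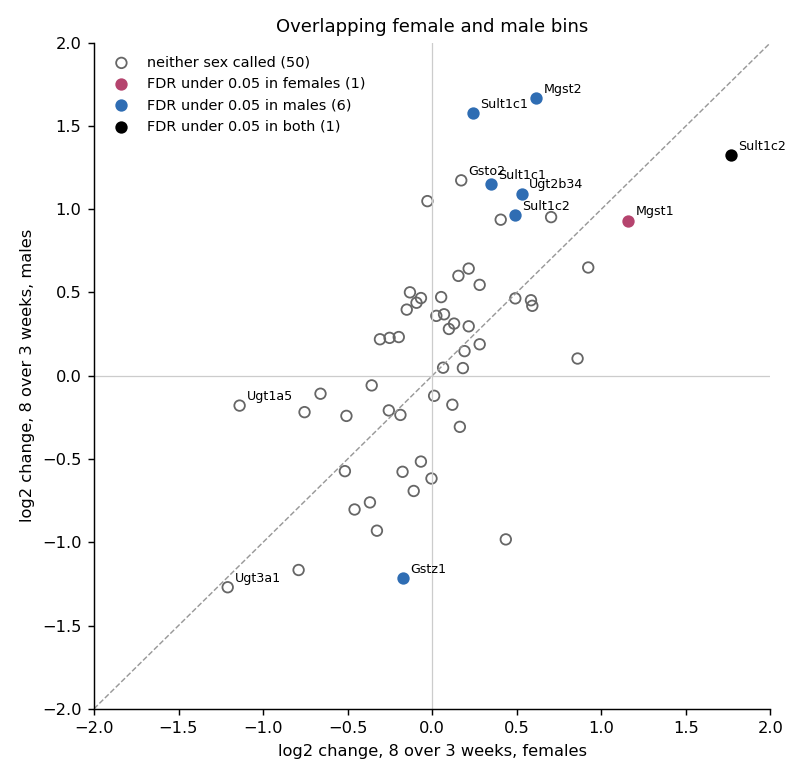
Each point is a pair of overlapping female and male bins of the families, with the log2 change from 3 to 8 weeks in females on the horizontal axis and in males on the vertical axis; the dashed line marks equal changes. The Sult1c2 pair (1.77 and 1.32) is the single one called in both sexes, and the Ugt3a1 promoter pair lies at the lower left (-1.21 and -1.27).

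Genes that supply cofactors or carry out other conjugation steps gave 1 called bin of 163 in females (0.613%, against 2.08% of all autosomal bins) and 10 of 217 in males (4 higher, 6 lower; 4.61%, against 4.36%), so that the male share was near that of all bins. The called bins that overlapped their own gene in males were those of Sulf1 (an extracellular sulfatase, promoter, 1.51, FDR 0.015), Gusb (beta-glucuronidase, intron 9, -1.61, FDR 0.035), Ggt1 (gamma-glutamyltransferase, promoter, -1.50, FDR 0.036), Ggt7 (promoter, -1.39, FDR 0.045) and Papss1 (which makes the sulfate donor PAPS, -1.43, FDR 0.048). Among regulators of these enzymes, 1 of 81 bins was called in females and 14 of 108 in males (12 higher), or 1.23% and 13.0% against the same 2.08% and 4.36%. Of those 14, 9 higher bins and 1 lower one were assigned to Maf, and all but 2 of these 10 overlapped the neighbouring gene Wwox. No bin of Nfe2l2, Keap1, Nr1i2 (PXR) or Hnf4a was called in either sex.

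The MO comparisons asked whether the mark differed in offspring of obese dams. It did so at 1 family bin by the unadjusted p under 0.001 used here, and at none by the FDR. The bin was the internal Mgst2 promoter in females at 3 weeks, printed above, which was lower with MO by 1.13 (SE 0.33, exact p = 0.00058, FDR 0.68). Over all autosomal bins 0.212% passed p under 0.001 in females at 3 weeks, 0.278% in males at 3 weeks, 0.168% in females at 8 weeks and 0.112% in males at 8 weeks; the family counts were 1 of 122, 0 of 147, 0 of 94 and 0 of 89. At an unadjusted p under 0.05 the counts were 5, 10, 7 and 6, or 4.10%, 6.80%, 7.45% and 6.74%, against 7.74%, 8.83%, 7.04% and 6.51% of all autosomal bins.

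The Mgst2 promoter bin was thus lower at 8 than at 3 weeks in control females and lower with MO than in controls at 3 weeks. Both comparisons use the same control females of 3 weeks, so the second value is not independent of the first. At 8 weeks the MO change of this bin was 0.46 (exact p = 0.29). The MO changes at the different ages differed by -1.58 (95% interval -2.64 to -0.52, approximate z test), which did not pass after adjustment over all bins (adjusted p = 0.67). The overlapping bin of males at 3 weeks (chr3:51673081-51673581) stood at 0.26 (exact p = 0.53).

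Other family bins with small p-values under MO follow, none of them past the threshold. In females at 3 weeks these were a Maml3 exon bin assigned to Mgst2 (0.74, exact p = 0.024), a bin at -8.03 kb from the Sult1c1 start (chr17:53998701-53999201; -0.80, exact p = 0.030) and a bin assigned to Gstm1 that lies in an exon of Gm12499 (-0.87, exact p = 0.038). The Sult1c1 bin had the smallest p in females at 8 weeks as well (-1.16, exact p = 0.0039, FDR 0.93), and was the single family bin with p under 0.05 at both ages in the same sex. Its MO changes at the different ages come from separate libraries and differed by 0.36 (95% interval -0.71 to 1.43). The other leading bins of females at 8 weeks were assigned to Ugt2b37 (0.70, exact p = 0.027), Gstz1 (0.82, exact p = 0.030, lying in Tmed8) and Ugt2b34 (intron 3, 0.67, exact p = 0.032).

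In males at 3 weeks the smallest p belonged to intron 2 of Gsta4 (chr9:78195071-78195342; 1.06, exact p = 0.0091, FDR 0.82), an enzyme that conjugates the lipid peroxidation product 4-hydroxynonenal. It was followed by a distal Gstt2 bin (-1.03, exact p = 0.0096), a Ugt1a6b intron bin (0.76, exact p = 0.012) and the repeat bin downstream of Sult1c2 that rose with age (0.90, exact p = 0.018). In males at 8 weeks the leading bins were at the internal Mgst2 start (chr3:51676081-51676554; -1.17, exact p = 0.017), in the untranslated end of Gstt4 (1.00, exact p = 0.033), near Sult1c2 (0.91, exact p = 0.035) and upstream of Ugt3a1 (-0.72, exact p = 0.037). Each of these 4 had a deposited FDR of 1.00. The Mgst2 bin lies 16.0 kb past the start of the longest Mgst2 gene model.

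**Figure D5:**
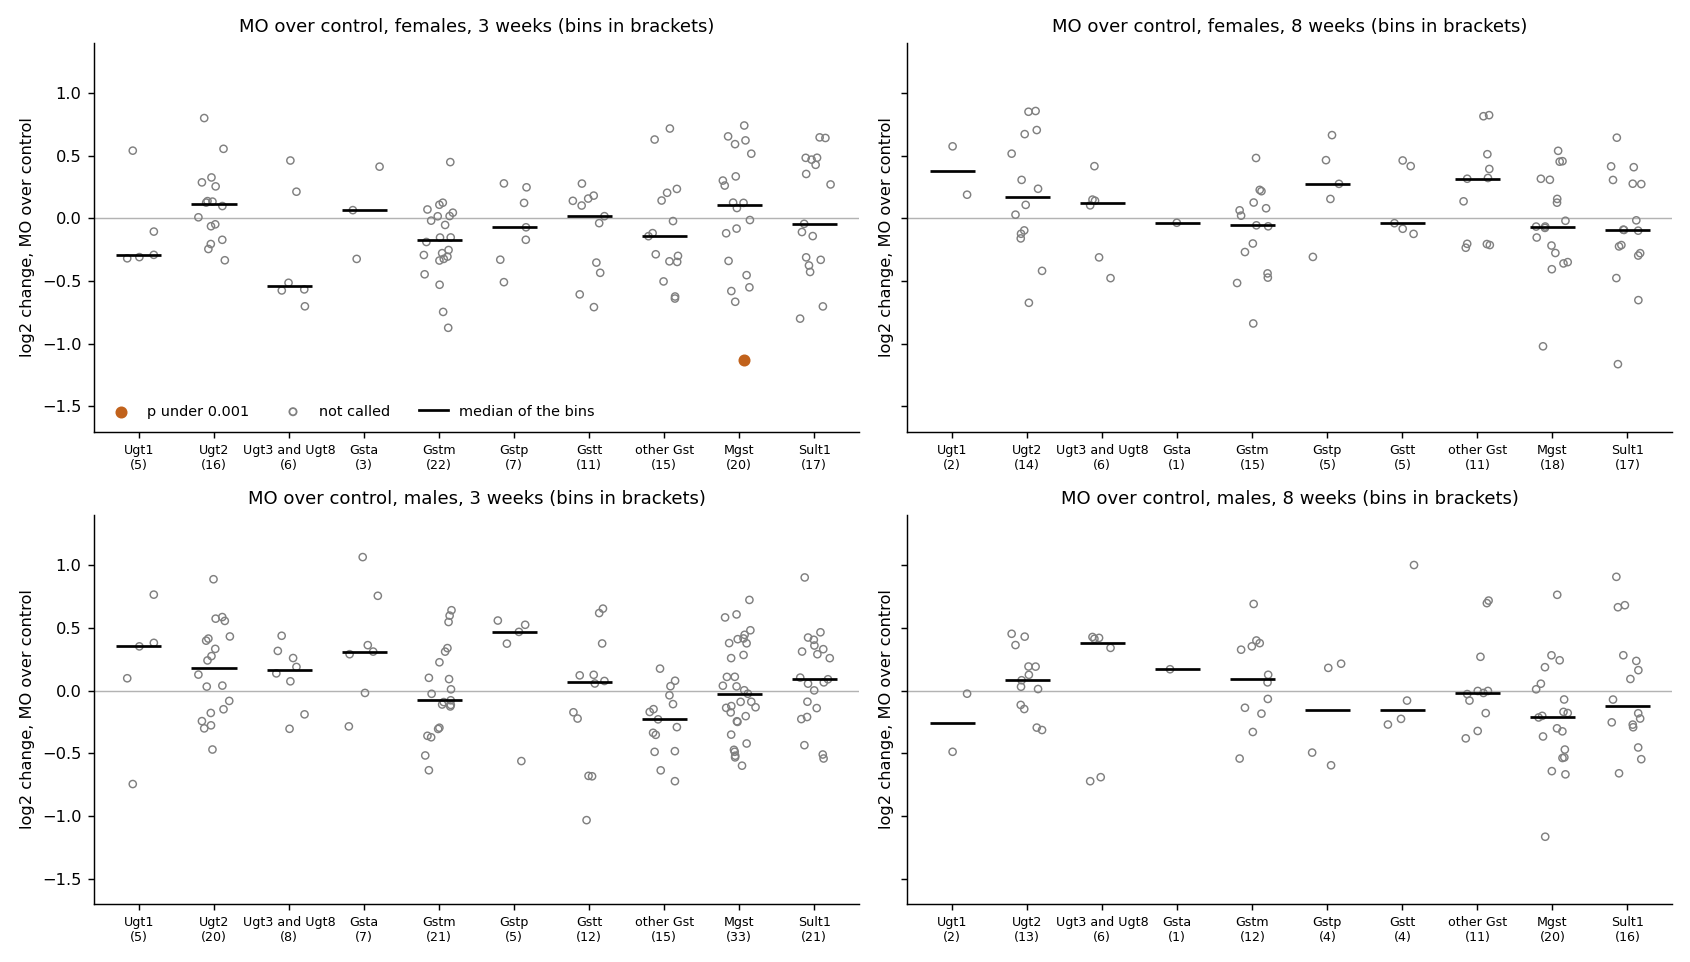
Log2 change of MO over control for each family bin, by gene family, in females (upper row) and males (lower row) at 3 weeks (left) and 8 weeks (right); the filled point has p under 0.001 and black lines are medians. The Mgst2 promoter bin of females at 3 weeks (-1.13) is the one filled point.

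The change with MO was compared between the ages at 64 family bins of females and 66 of males that both tables hold. No family bin and no other autosomal bin differed after adjustment (0% called in each sex). An unadjusted p under 0.05 was reached at 4 of the 64 (6.25%, against 6.03% of all shared autosomal bins) and 3 of the 66 (4.55%, against 6.35%). Of the cofactor and other conjugation genes, 1 of 154 bins passed p under 0.001 in females at 8 weeks (0.649%, against 0.168% of all autosomal bins), in intron 3 of Sulf2 (1.54, FDR 0.84), and 1 of 148 in males at 8 weeks (0.676%, against 0.112%), in exon 13 of Gclc, the catalytic subunit of the first enzyme of glutathione synthesis (-1.38, FDR 1.00). Among the regulators 1 of 97 bins did in females at 3 weeks (1.03%, against 0.212%), a distal bin of Maf (-1.23, FDR 0.68).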

How the data were processed

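H3K9me3 ChIP-seq of mouse liver was processed by the authors with BWA alignment to mm10 (GRCm38), MACS2 broad peaks per library, a consensus of at least 3 replicates merged per sex, cutting of long peaks into bins of up to 501 bp with 1 bin kept per peak in the tables, and featureCounts 1.6.2. The deposited log2 fold changes and average log2 CPM were made by the authors with edgeR 4.3.3. The deposited p-values and FDRs come from the authors' edgeR exact test, the FDRs over more bins than are listed. Total counts per library are not used here, since the tables give comparisons only, so that depth behind each value is unknown.

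From these tables, with Python 3.11.15, pandas 2.3.3 and scipy 1.17.1, the direction of every change was read from the table names, first group over second, since the tables do not state it, and age signs were then turned so that positive is higher at 8 weeks. Bins were called at FDR under 0.05 (age) or p under 0.001 (MO). SEs were recovered from p and log2 change through a normal approximation. Differences between sexes or ages were tested with a two-sided approximate z test, adjusted by Benjamini-Hochberg over all autosomal pairs; pairs with a p of 1 have no SE and were not tested. These steps were tested on simulated data whose p-values came from the same normal formula. That checks the arithmetic, but not how well the approximation holds for p-values of the exact test. Positions use GENCODE M21 models and RefSeq names, and sequences are from GRCm38. Named bins are those called, the smallest p and strongest signal per family and sex, the 4 smallest p-values per MO comparison, and start-site bins with p under 0.05. Other bins, such as overlapping partners in the other sex and those of Sult1a1, Sult1b1 and Mgst1 that were not called, were named after their values were seen. The members and lists were chosen with earlier results of these data known. Nothing in the labels says whether libraries come from separate litters, so the p-values speak for these samples and may not cover the spread between litters. Alternative thresholds, filters, positions and a subtraction of the GC and signal trend were tried.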

Additional observations from a re-analysis of the deposited data

How the results depend on the processing

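Of 105 family bins in females and 140 in males, 4 and 11 were called with age. An FDR under 0.01 gave 1 and 4 (0.637% and 1.6% of all autosomal bins), an FDR under 0.10 gave 8 and 17 (3.87% and 7.20%), restriction to promoters and gene bodies gave 2 and 3, and removal of the GC and signal trend gave 2 and 6, where 0.751% and 1.67% of all autosomal bins were called. Restriction to bins in a family gene or at its start, added after seeing the data, gave 2 and 2, all lower at 8 weeks. A minimum absolute log2 change of 1 (4 and 10), signal above the median (5 of 65 and 10 of 74, of which 2 and 8 were called before, against 2.75% and 6.45% of autosomal bins), adjustment over the deposited bins (6 and 16, against 2.50% and 5.63%) and counting genes (4 and 8) stayed within 1.5 times the counts. For MO in females at 3 weeks, the single call became 5 at p under 0.05 and 0 at an FDR under 0.05. The counts of 0 became 2 at p under 0.01 and 10 at p under 0.05 in males at 3 weeks, 1 and 7 in females at 8 weeks, and 0 and 6 in males at 8 weeks. For the settings by position, minimum change and genes, no share of all autosomal bins is given, nor for MO at p under 0.01. Those counts therefore have no background beside them. Differences between sexes or ages gave 0 calls under each overlap tried. No female and male family bins share coordinates, so that alternative gave no value. No paired analysis was possible because the tables hold no values per library, and for the same reason leaving out each replicate was not run. Bins of near-identical gene copies and of repeats rest on uncertain read placement.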
